A study of Mus musculus with 12 samples.

Results

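Cytochrome P450 genes of families CYP1 to CYP4 were taken from a gene table of mouse liver RNA-seq as every gene whose symbol is Cyp, a family digit from 1 to 4, a subfamily letter and a member number, with pseudogenes left out. This gave 75 genes in 21 subfamilies on 9 chromosomes, of 55903 genes in the table, and all 75 are annotated as protein-coding. Of these, 45 had a mean of at least 1 TPM (a transcript abundance that corrects for transcript length and sums to a constant in each library) over all libraries and were tested, and 30 were not. The families hold 39 further symbols that the rule does not take, of which 32 are pseudogenes. Cyp4a12a and Cyp4a12b, with means of 193 and 61.5 TPM, are among the rest because their symbols end in a letter.

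The 12 libraries fall into 3 groups of 4. The KSL0608-Se treated group received a compound known only by that code, and its description also names doxo. Its title, unlike those of the other groups, holds no word for age, so whether its age matches either of them is unknown. The aged/doxo group is titled as an aged control and described as doxo, which is read here as the DNA-damaging drug doxorubicin, although the labels do not spell it out. The young control group is described as control. Because title and description of the second group differ, its age and its drug cannot be told apart, and it is called aged/doxo. Strain, sex, exact age, dose and the animals behind each library are not named in the labels, so the spread that the tests rest on is that between libraries and may be technical in part. Xist, which is transcribed from the inactive X chromosome of females, was listed at 0.01 TPM or less in each of the 12 libraries. The question the design poses is how hepatic transcripts differ between aged/doxo and young liver and how they stand after KSL0608-Se.

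P450 enzymes are haem proteins of the endoplasmic reticulum that insert an oxygen atom into lipophilic molecules, with electrons handed on by the reductase Por and by cytochrome b5. Families CYP1 to CYP3 oxidise drugs, pollutants and steroids, and family CYP4 adds a hydroxyl group at the end of fatty acid chains. In liver their genes answer to ligand-activated factors: AHR for Cyp1a, CAR and PXR for Cyp2b, Cyp2c and Cyp3a, and PPARA for Cyp4a. Several mouse members also differ between the sexes under control of growth hormone pulses, and many are expressed around the central vein of the lobule.

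Members within a subfamily lie side by side and can be nearly identical, which bears on how a value can be read. The pairs Cyp2a5 with Cyp2a4 and Cyp2b13 with Cyp2b9 are shown because each pair combines near-identical sequence just before the start of the gene with unequal level. The 250 bases before the RefSeq start are given 5′ to 3′ on the plus strand of chromosome 7 (RefSeq, GRCm38.p6), in lower case with the bases that differ within the pair in capitals. The windows are chr7:26835089-26835338 for Cyp2a5, chr7:26306942-26307191 for Cyp2a4, chr7:26061245-26061494 for Cyp2b13 and chr7:26173159-26173408 for Cyp2b9.
Cyp2a5: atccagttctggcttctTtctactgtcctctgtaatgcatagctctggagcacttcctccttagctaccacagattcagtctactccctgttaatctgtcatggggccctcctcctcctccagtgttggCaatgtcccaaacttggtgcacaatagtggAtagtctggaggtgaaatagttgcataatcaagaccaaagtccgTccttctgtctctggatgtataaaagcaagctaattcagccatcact
Cyp2a4: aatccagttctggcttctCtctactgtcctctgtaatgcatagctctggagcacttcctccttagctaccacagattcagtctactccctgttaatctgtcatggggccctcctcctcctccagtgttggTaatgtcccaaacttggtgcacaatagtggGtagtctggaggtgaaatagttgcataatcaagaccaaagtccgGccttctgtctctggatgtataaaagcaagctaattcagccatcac
Cyp2b13: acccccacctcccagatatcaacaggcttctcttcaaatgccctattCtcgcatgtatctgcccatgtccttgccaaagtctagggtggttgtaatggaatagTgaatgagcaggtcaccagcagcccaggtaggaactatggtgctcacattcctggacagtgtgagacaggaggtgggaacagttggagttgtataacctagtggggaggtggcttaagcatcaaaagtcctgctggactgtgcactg
Cyp2b9: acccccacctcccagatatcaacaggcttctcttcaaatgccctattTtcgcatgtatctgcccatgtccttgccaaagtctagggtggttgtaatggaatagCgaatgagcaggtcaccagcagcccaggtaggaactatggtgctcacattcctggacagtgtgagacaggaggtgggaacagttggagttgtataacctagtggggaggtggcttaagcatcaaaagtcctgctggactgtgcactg

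The Cyp2a5 and Cyp2a4 windows differed at 4 of 249 aligned bases (98.4% identity). Counted upstream from the start of Cyp2a5, with its base first, the differences are T233C, C121T, A91G and T47G. The Cyp2b13 and Cyp2b9 windows differed at 2 of 250 bases (99.2% identity), which are C203T and T147C counted in the same way from Cyp2b13. Within each pair the level was far from equal in most libraries. Cyp2a5, which encodes coumarin 7-hydroxylase, stood 55.0 to 733 times above Cyp2a4, a steroid 15-alpha-hydroxylase that is higher in females. Cyp2b13 stood above Cyp2b9 in 10 of the 11 libraries in which Cyp2b9 was not listed at 0, with a median ratio of 18.3 and a range of 0.937 to 268. Over the coding sequence Cyp2a5 and Cyp2a4 were 98.4% identical, with 1459 of 1482 bases shared. Reads from such copies can be split between them by the authors' counting, so both levels of a pair are uncertain. In all, 13 of 245 pairs within subfamilies were at least 95% identical over the coding sequence, and 17 members, of which 14 were tested, belong to such a pair.

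The letters TATAAA on the given strand, the core promoter's TATA box, occurred in 20 of the 62 members with a RefSeq promoter (250 bases before to 50 after the start), or 32.3%, against 9.77% of 27025 genes. Cyp1a1, Cyp1a2, Cyp2e1, Cyp3a11, Cyp2c29 and all 4 Cyp2a members hold them, and both Cyp2a windows printed above include them. CAAAGTCCA, a sequence of the kind bound by the liver factor HNF4A, was found on either strand in 8 of 62 members (12.9%), against 0.555% of all genes. These were Cyp2c40, Cyp2c65, Cyp2c67, Cyp2c68, Cyp2c69, Cyp2c70, Cyp3a11 and Cyp3a16. GCGTG, the core of the AHR element, was found on either strand in 13 of 62 members (20.97%) and in 35.2% of all genes. Members that hold the same letters include close copies. Over the coding sequence Cyp2a4 and Cyp2a5, which hold TATAAA, are 98.4% identical. Among those with CAAAGTCCA, Cyp2c67 is 97.7% identical to Cyp2c69 and 97.1% to Cyp2c68, and Cyp3a11 is 92.8% identical to Cyp3a16. The member counts for TATAAA and CAAAGTCCA are therefore not counts of unrelated genes. TATAAA and CAAAGTCCA do not overlap as letters, and the 3 searches were made separately. A match is a description of these letters in this window and not a binding site.

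Cyp2e1, which oxidises ethanol and paracetamol, was the most abundant member in all 12 libraries, with a mean of 3167 TPM over all libraries. Cyp3a11, the main hepatic counterpart of human CYP3A4, followed at 1444 TPM and Cyp2d9, a male-biased steroid 16-alpha-hydroxylase, at 1047 TPM. Only these 3 averaged at least 1000 TPM, and 20 members averaged at least 100 TPM. Another 13 averaged between 10 and 100 TPM and 12 between 1 and 10 TPM. Of the 30 below 1 TPM, 23 had a value above 0 in some library and 7 were listed at 0 in all of them (Cyp2j7, Cyp2j11, Cyp2j12, Cyp2j13, Cyp2t4, Cyp2w1 and Cyp4a29). Closest to the limit of 1 TPM were Cyp2g1 at 0.889, Cyp2b10 at 0.811 and Cyp4f16 at 0.768 TPM just below, and Cyp2b9 at 1.02, Cyp2d12 at 1.04 and Cyp2a4 at 1.22 TPM just above.

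**Figure D1:**
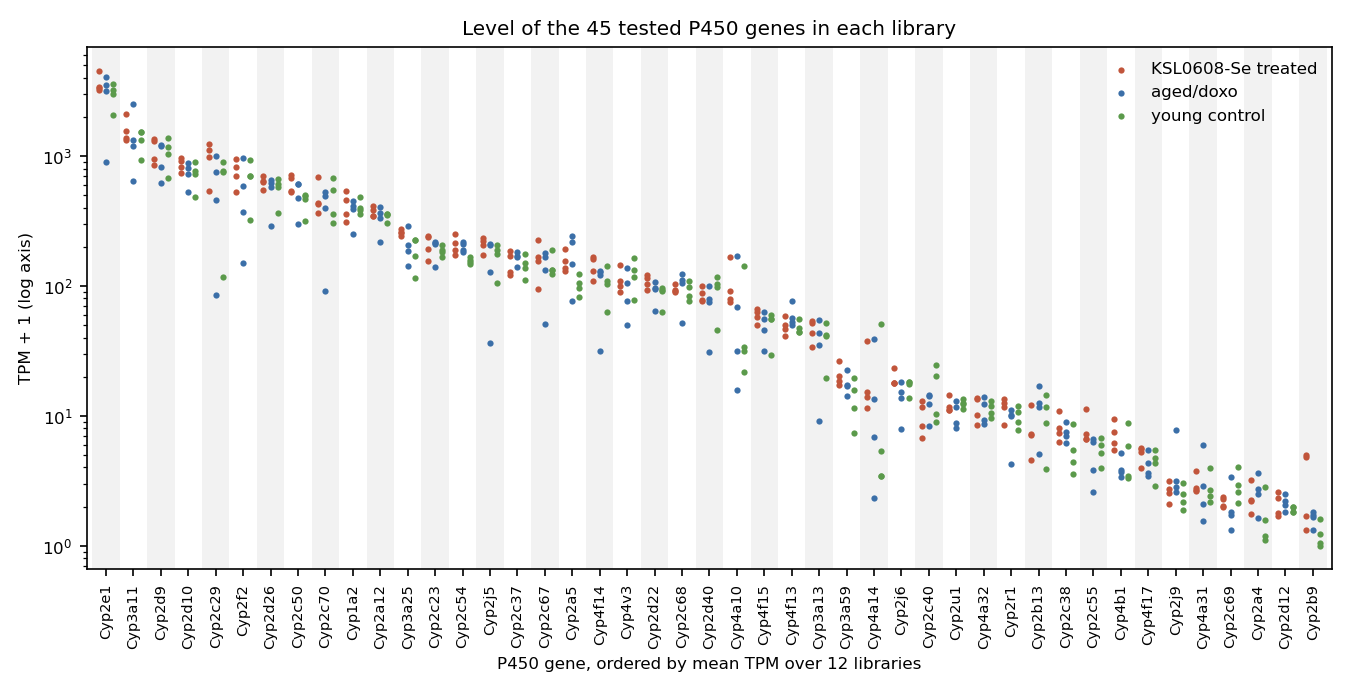
TPM + 1 on a log axis for each of the 45 tested P450 genes, ordered from left to right by mean level, with 1 point per library and the 3 groups side by side within each gene. Cyp2e1 leads, the groups overlap for nearly every gene, and the lowest blue point of many genes is aged/doxo library 2.

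The order at the top was much the same in each group. Cyp2e1, Cyp3a11 and Cyp2d9 were the top 3 by mean, in this order, in all 3 groups. They were followed by Cyp2c29 and Cyp2d10 in KSL0608-Se treated liver, by Cyp2d10 and Cyp2c29 in aged/doxo liver, and by Cyp2d10 and Cyp2f2 in young control liver. These next genes lay within their spread of each other: in young control liver Cyp2d10 averaged 718 ± 171 TPM, Cyp2f2 660 ± 252 TPM and Cyp2c29 634 ± 352 TPM (SD, n = 4). The 5 most abundant members of a library held 56.7% to 61.5% of its P450 TPM and the top 10 held 77.3% to 82.6%.

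By subfamily, Cyp2e (its one gene Cyp2e1) held a median of 26.2% of the P450 TPM of a library, Cyp2d 20.9%, Cyp2c 20.4%, Cyp3a 13.9%, Cyp2f 5.16%, Cyp2a 4.18%, Cyp1a 3.20%, Cyp4f 1.85%, Cyp2j 1.62%, Cyp4v 0.927% and Cyp4a 0.677%. Cyp2c had the narrowest range of share among the 4 largest subfamilies, 19.1% to 21.95% in the 12 libraries, although 15 genes contribute to it. Cyp2e1 alone ranged from 17.0% in aged/doxo library 2 to 30.6% in aged/doxo library 4. Summed over the 75 members, P450 transcripts averaged 13676 ± 1862 TPM in KSL0608-Se treated, 11228 ± 4214 TPM in aged/doxo libraries and 11459 ± 2597 TPM in young control libraries (SD, n = 4 each). The groups overlap, since the lowest treated library stood at 11468 TPM while 3 aged/doxo libraries and 3 young control libraries were at 11495 TPM or more.

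**Figure D2:**
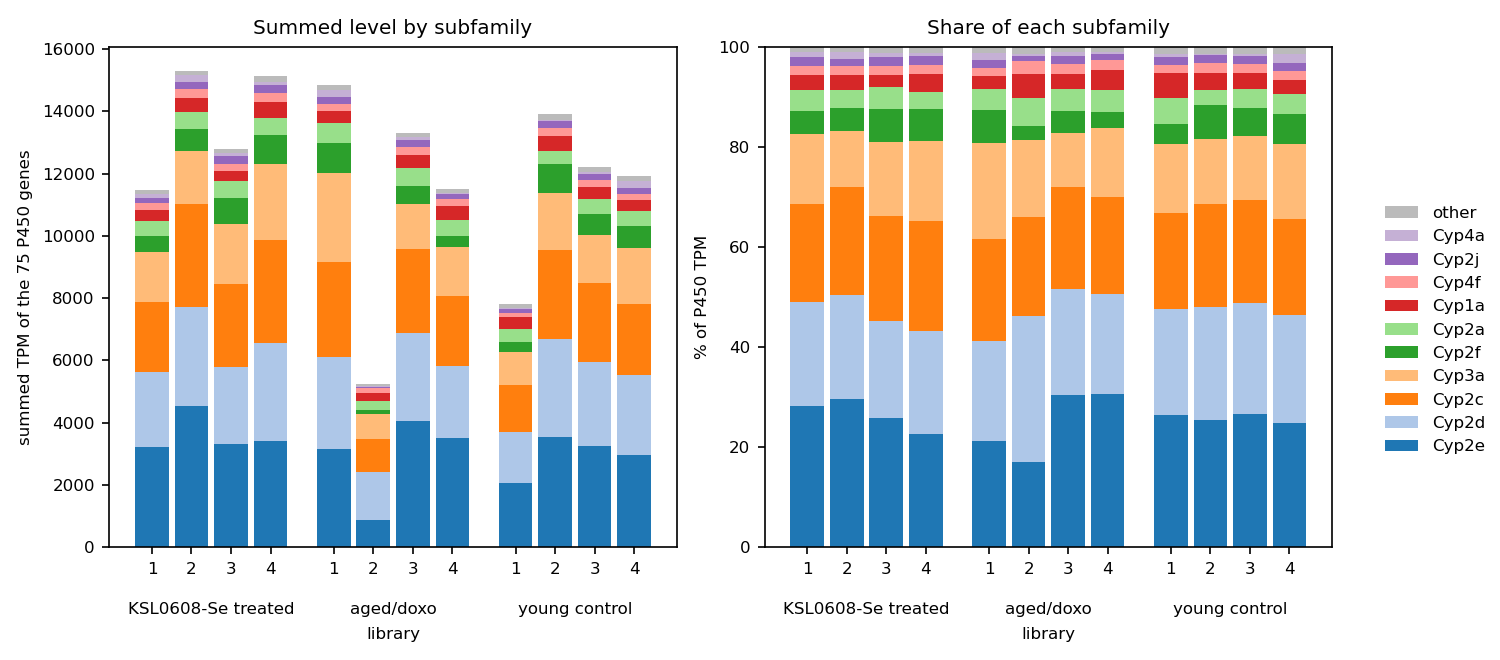
Summed TPM of the 75 P450 genes in each library by subfamily (left) and the same as a percentage of P450 TPM (right), with libraries numbered 1 to 4 within each group. The total is lowest in aged/doxo library 2 (5252 TPM) and young control library 1 (7797 TPM), while shares differ less than totals.

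These 2 libraries stand apart from the rest of the series. Aged/doxo library 2 had 27.6% of its TPM on mitochondrial genes, against 8.10% to 12.4% in the other libraries, and it was the lowest of the 12 libraries for 27 of the 45 tested members (60.0%), as it was for 54.2% of all tested genes. Young control library 1 was lowest for 8 members (17.8%), against 21.3% of all tested genes, and it was highest for 1 member, Cyp2c40 (2.22%, against 1.92% of all tested genes). Mup transcripts took 26.5% of its TPM. The number of genes at 1 TPM or more ranged from 9568 to 11023 per library, and the depth of sequencing behind the values is unknown. The summed TPM of 10 hepatocyte markers was 67508 to 78422 in the treated libraries, 51558 to 82020 in the aged/doxo libraries and 54225 to 74227 in the young control libraries, so the tissue label fits its markers. In bulk tissue fewer hepatocytes and less RNA per hepatocyte cannot be told apart.

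Cyp1a2, an AHR target that oxidises caffeine and aromatic amines, carried nearly all of the CYP1 signal. It stood at 359, 456, 308 and 534 TPM in the treated libraries, at 388, 249, 412 and 449.6 TPM in the aged/doxo libraries and at 384, 479.7, 399.6 and 354 TPM in the young control libraries. The groups overlap, and the mean was 414 ± 101, 375 ± 87.6 and 404 ± 53.5 TPM in treated, aged/doxo and young control liver (SD, n = 4 each). Its neighbour on chromosome 9, Cyp1a1, the member most readily induced by AHR ligands, stayed between 0.20 and 0.44 TPM, and Cyp1b1 between 0.03 and 0.18 TPM. Cyp1a2 therefore exceeded Cyp1a1 in each library by more than their spread, and neither Cyp1a1 nor Cyp1b1 reached the limit for testing.

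Cyp2e1 lies on chromosome 7 from 140763739 to 140774987 (GRCm38). It measured 3232, 4532, 3319.8 and 3425 TPM in the treated libraries, 3168, 892, 4066 and 3519 TPM in the aged/doxo libraries, and 2069, 3557, 3245 and 2975 TPM in the young control libraries. The single value under 1000 TPM is that of aged/doxo library 2, and all groups overlap. Log2 fold changes were -0.20 ± 0.39 (SE) for aged/doxo against young control, 0.51 ± 0.39 for treated against aged/doxo and 0.31 ± 0.39 for treated against young control, with 95% intervals of -1.05 to 0.64, -0.34 to 1.36 and -0.54 to 1.15.

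The Cyp2a genes lie on chromosome 7 between 26307169 and 27037375. Cyp2a12, a steroid 7-alpha-hydroxylase that also acts on bile acids, varied 1.90-fold over all libraries, with 371 ± 32.8, 330 ± 81.2 and 341 ± 24.2 TPM in treated, aged/doxo and young control liver (SD, n = 4 each). Cyp2a5 measured 129.6, 191, 154 and 136 TPM in the treated libraries, 218, 76.0, 242 and 146 TPM in the aged/doxo libraries and 94.5, 80.6, 103 and 123 TPM in the young control libraries. All 4 treated libraries lay above all 4 young control libraries, while the aged/doxo group spans both. Its copy Cyp2a4 measured 2.18, 1.25, 0.76 and 1.21 TPM in treated libraries, 1.72, 0.63, 1.51 and 2.65 TPM in aged/doxo and 0.18, 0.11, 0.57 and 1.84 TPM in young control libraries. Young control libraries 1 to 3 were the lowest of the 12 for Cyp2a4, and young control library 4 was below treated library 1 and aged/doxo library 4 alone. Cyp2g1, an olfactory enzyme whose gene lies just before Cyp2a5, was at 0.56 to 2.13 TPM in treated libraries, 0.15 to 2.40 TPM in aged/doxo and 0.02 to 0.57 TPM in young control libraries and did not reach the limit for testing.

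The Cyp2b genes, the classical targets of CAR, were low throughout. Cyp2b10, the phenobarbital-induced member, measured 0.41, 1.00, 2.33 and 0.67 TPM in treated libraries, 1.07, 0.06, 0.62 and 0.55 TPM in aged/doxo and 0.02, 0.65, 1.02 and 1.33 TPM in young control libraries. Cyp2b9, a female-biased member, measured 0.70, 3.81, 4.01 and 0.32 TPM in treated libraries, 0.72, 0.33, 0.66 and 0.83 TPM in aged/doxo, and 0.05, 0.00, 0.23 and 0.59 TPM in young control libraries. Treated libraries 2 and 3 hold the high values of Cyp2b9, and the other treated libraries overlap both groups. Cyp2b13 ran between 2.88 and 16.0 TPM with all groups overlapping, and Cyp2b19 and Cyp2b23 were each above 0 in 1 library, at 0.01 and 0.03 TPM.

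The 15 Cyp2c genes, arachidonic and linoleic acid epoxygenases and drug oxidases, lie on chromosome 19, most of them between 39007019 and 40187333. Cyp2c29 was the most abundant and the most variable of the abundant ones, at 534, 1230.5, 1102 and 974 TPM in treated libraries, 1000.2, 83.9, 759 and 457 TPM in aged/doxo, and 116, 905, 753 and 763 TPM in young control libraries. Its 2 values under 200 TPM are those of aged/doxo library 2 and young control library 1, and the groups overlap. Cyp2c70, which makes the muricholic acids that set mouse bile apart, measured 425, 437, 363 and 684 TPM in treated libraries, 529, 91.0, 491 and 395 TPM in aged/doxo and 302, 677, 551 and 356 TPM in young control libraries. By contrast Cyp2c54, Cyp2c37 and Cyp2c23 varied less than 2-fold over all 12 libraries. Cyp2c54 measured 170.4, 249, 187 and 212 TPM in treated libraries, 188.5, 180.4, 216 and 209.96 TPM in aged/doxo, and 157, 146, 165 and 153 TPM in young control libraries. All 8 libraries of the treated and aged/doxo groups lay above all 4 young control libraries for Cyp2c54. Cyp2c50, which is 95.2% identical to Cyp2c54 over the coding sequence, averaged 615 ± 95.8, 496 ± 148 and 442 ± 85.1 TPM in treated, aged/doxo and young control liver (SD, n = 4 each). Cyp2c55, an arachidonic acid 19-hydroxylase that CAR and PXR induce, measured 5.65, 6.24, 5.64 and 10.2 TPM in treated libraries, 5.32, 1.58, 5.63 and 2.81 TPM in aged/doxo and 2.98, 4.15, 5.76 and 4.92 TPM in young control libraries. The lowest treated value, 5.64 TPM, stood just above the highest aged/doxo value, 5.63 TPM, and the treated libraries overlapped the young control ones.

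The Cyp2d genes on chromosome 15 oxidise steroids and many amine drugs. Cyp2d9, Cyp2d10 and Cyp2d26 averaged 1110.3 ± 251, 859.8 ± 100.1 and 628 ± 67.0 TPM in treated libraries, 964 ± 291, 738 ± 154 and 536 ± 168 TPM in aged/doxo, and 1068 ± 296, 718 ± 171 and 551 ± 129 TPM in young control libraries (SD, n = 4 each). None of the 6 tested Cyp2d genes separated any pair of groups. In aged/doxo library 2 the Cyp2d share of P450 TPM was 29.2%, against 19.3% to 22.5% in the other libraries. Cyp2d11 and Cyp2d34 stayed under 1 TPM in every library.

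Cyp2f2, which activates naphthalene and marks the periportal zone, measured 524, 704, 828 and 954 TPM in treated libraries, 972, 148, 583 and 368 TPM in aged/doxo, and 319, 926, 697 and 700.4 TPM in young control libraries. Its range was 6.55-fold over all libraries, with the lowest value again in aged/doxo library 2. Among the epoxygenases of the Cyp2j cluster, Cyp2j5 measured 171, 204, 222 and 233 TPM in treated libraries, 206, 35.2, 209.8 and 127.5 TPM in aged/doxo and 105, 205, 188 and 176 TPM in young control libraries. Cyp2j6 followed at 12.6 to 22.5 TPM outside aged/doxo library 2, which held 6.92 TPM. Cyp2j9 went the other way in that library, where it reached 6.82 TPM, against 0.89 to 2.17 TPM in the other 11. Cyp2r1, a vitamin D 25-hydroxylase, averaged 10.6 ± 2.19, 7.88 ± 3.14 and 8.85 ± 1.85 TPM, and Cyp2u1, a fatty acid hydroxylase, 11.0 ± 1.61, 9.35 ± 2.31 and 11.4 ± 0.926 TPM, in treated, aged/doxo and young control liver (SD, n = 4 each). Cyp2s1 was at or under 0.23 TPM in 11 libraries and at 1.72 TPM in young control library 4.

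Of the 7 Cyp3a genes on chromosome 5, 4 were tested. Cyp3a11 measured 1319, 1382.5, 1569 and 2096 TPM in treated libraries, 2507, 639, 1186 and 1338 TPM in aged/doxo, and 933, 1523, 1317 and 1517 TPM in young control libraries. The highest and the lowest of the 12 values both belong to the aged/doxo group. Cyp3a25 measured 241, 259, 272 and 254 TPM in treated libraries, 288, 140.1, 205 and 185 TPM in aged/doxo and 114, 225, 170.3 and 226 TPM in young control libraries. Its 4 treated libraries, between 241 and 272 TPM, lay above every young control library. Cyp3a13 and Cyp3a59 averaged 38.9 and 16.3 TPM over all libraries, and the female-biased or fetal forms Cyp3a16 and Cyp3a44 stayed at or under 0.08 TPM. Cyp3a59 is 97.5% identical to Cyp3a25 over the coding sequence.

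In family CYP4, Cyp4a10 and Cyp4a14, fatty acid omega-hydroxylases and standard readouts of PPARA, ranged 11.3-fold and 37.5-fold over the 12 libraries, which with the 14.7-fold range of Cyp2c29 were the widest among members averaging at least 10 TPM. Cyp4a10 measured 91.0, 165, 77.8 and 74.1 TPM in treated libraries, 168, 14.8, 67.7 and 30.8 TPM in aged/doxo, and 30.4, 20.6, 32.6 and 141 TPM in young control libraries. Cyp4a14 measured 14.2, 36.5, 13.1 and 10.5 TPM in treated libraries, 38.0, 1.33, 12.4 and 5.87 TPM in aged/doxo and 2.44, 2.45, 4.36 and 49.9 TPM in young control libraries. For both genes the highest value of each group belongs to the same library: treated library 2, aged/doxo library 1 and young control library 4. Both genes therefore moved together from library to library and crossed the groups, with Cyp4a10 2.83 to 12.5 times above Cyp4a14. Their neighbour Cyp4a32 held between 7.55 and 12.8 TPM everywhere, although it is 97.2% identical to Cyp4a10 over the coding sequence.

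Cyp4f14, a leukotriene B4 omega-hydroxylase, averaged 141 ± 26.7, 102 ± 47.6 and 103 ± 32.4 TPM in treated, aged/doxo and young control liver (SD, n = 4 each), with 30.6 TPM in aged/doxo library 2. Cyp4f13 measured 45.2, 57.6, 40.0 and 49.4 TPM in treated libraries, 48.9, 75.7, 51.8 and 55.2 TPM in aged/doxo, and 43.3, 54.3, 46.4 and 43.4 TPM in young control libraries. Cyp4f13 and Cyp2j9 were the 2 tested members (4.44%) that were highest of all 12 libraries in aged/doxo library 2, against 6.41% of all tested genes. Cyp4v3, the mouse counterpart of human CYP4V2, averaged 110.0 ± 24.2, 91.1 ± 37.1 and 122 ± 35.5 TPM in treated, aged/doxo and young control liver (SD, n = 4 each). Cyp4b1, best known from lung, measured 5.14, 4.46, 8.49 and 6.54 TPM in treated libraries, 2.68, 2.35, 2.82 and 4.16 TPM in aged/doxo and 2.29, 4.81, 2.44 and 7.79 TPM in young control libraries. All 4 treated libraries exceeded the aged/doxo ones for Cyp4b1, and the young control libraries overlapped both.

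**Figure D3:**
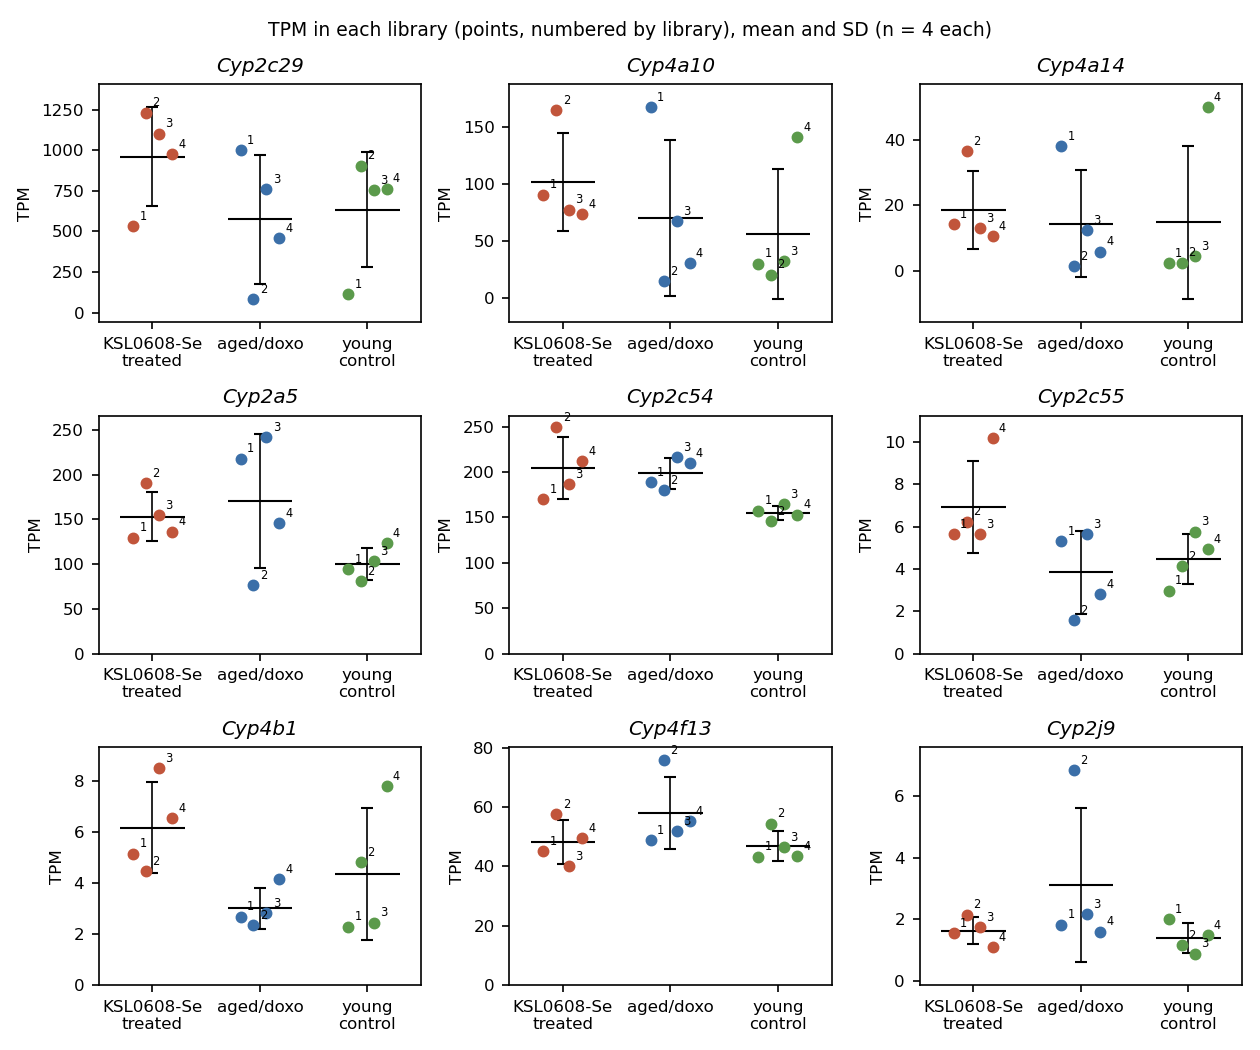
TPM of 9 P450 genes in each library, with points numbered by library, the group mean as a horizontal line and the SD as error bars (n = 4 each). Cyp4a10 and Cyp4a14 peak in treated library 2, aged/doxo library 1 and young control library 4, Cyp2c54 is higher in the treated and aged/doxo libraries than in all 4 young control libraries, and Cyp2j9 and Cyp4f13 peak in aged/doxo library 2.

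Aged/doxo liver was first set against young control liver. None of the 45 tested P450 genes passed limma's test at an adjusted p of 0.05 over all 10883 genes tested (smallest adjusted p = 1), where 0.00919% of all genes, 1 gene, passed. At an unadjusted p under 0.05, 0 of 45 members and 1.98% of all genes stood out. The members' median log2 fold change on the log2(TPM + 1) scale was -0.04, against -0.08 over all tested genes, and 20 of 45 values were positive (44.4%, against 35.3% of all genes). This sign rests on 1 library, since without aged/doxo library 2 the members' median was 0.20 and that of all genes 0.10.

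The members nearest to the threshold in this comparison are named with values that did not pass. Higher in mean were Cyp2a4 with a log2 fold change of 0.70 ± 0.33 (SE), Cyp2c54 with 0.35 ± 0.17, Cyp2j9 with 0.64 ± 0.31, Cyp2a5 with 0.64 ± 0.32, Cyp2c38 with 0.50 ± 0.26 and Cyp3a59 with 0.45 ± 0.28. Cyp2c54 was the 1 member of 45 whose aged/doxo libraries all lay above the young control ones (2.22%, against 0.689% of all genes), and 0 of 45 lay wholly below (0.312% of all genes). Lower in mean were Cyp2c69 with -0.55 ± 0.28, Cyp2u1 with -0.29 ± 0.19, Cyp4v3 with -0.46 ± 0.32, Cyp2j6 with -0.35 ± 0.25, Cyp2f2 with -0.55 ± 0.49 and Cyp2c70 with -0.52 ± 0.49. Aged/doxo library 2 held the lowest value of all 6 of these. Without it the log2 fold changes were -0.37 for Cyp2c69, -0.17 for Cyp2u1, -0.20 for Cyp4v3, -0.10 for Cyp2j6, -0.05 for Cyp2f2 and 0.06 for Cyp2c70. Of the genes higher in mean, leaving out the same library gave 0.28 for Cyp2j9 and 0.98 for Cyp2a5, and leaving out young control library 1 gave 0.19 for Cyp3a59 and 0.32 for Cyp2c38. Cyp2a4 averaged 0.675 TPM in young control liver and reached the limit for testing only through the other groups, so its difference helped to decide that it was tested.

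KSL0608-Se treated liver was next set against aged/doxo liver. Again 0 of 45 members passed (smallest limma adjusted p = 0.427), where 0.00919% of all genes passed. At an unadjusted p under 0.05, 3 of 45 members stood out (6.67%, against 4.77% of all genes), all higher in treated liver. These were Cyp4b1 with a log2 fold change of 0.83 ± 0.31 (SE, 95% interval 0.17 to 1.49), Cyp2c55 with 0.78 ± 0.31 (0.12 to 1.44) and Cyp2j6 with 0.53 ± 0.25 (0.00 to 1.07), each at a limma adjusted p of 0.427. Without aged/doxo library 2 the log2 fold changes were 0.75 for Cyp4b1, 0.51 for Cyp2c55 and 0.29 for Cyp2j6, and median-of-ratios scaling gave 0.55, 0.53 and 0.23 in this order. Cyp4b1 and Cyp2c55 are also the 2 members without overlap between these groups (4.44%, against 2.77% of all genes), and 0 of 45 lay wholly below (0.358% of all genes).

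Most members leaned upward here, as most genes did. The median log2 fold change of the members was 0.29, against 0.30 over all tested genes, with 37 of 45 positive (82.2%, against 81.0%), and under median-of-ratios scaling the members' median was -0.02, with 21 of 45 positive, and that of all genes 0.03. Without aged/doxo library 2 the medians were 0.03 for the members and 0.13 for all genes. Next in order upward were Cyp2j5 with 0.80 ± 0.46 (SE), Cyp2f2 with 0.81 ± 0.49 and Cyp2b9. The mean TPM of Cyp2b9 was 2.21 in treated liver, against 0.635 in aged/doxo and only 0.2175 in young control liver, so its mean of 1.02 TPM reached the limit for testing only through the treated group, and there through libraries 2 and 3. Its log2 fold changes, 0.74 here and 1.18 against young control, are therefore given as a description and not as a test. The values of Cyp2j5 and Cyp2f2 were 0.22 and 0.31 without aged/doxo library 2. Downward came Cyp2j9 with -0.49 ± 0.31, Cyp4f13 with -0.26 ± 0.20, Cyp2b13 with -0.54 ± 0.45, Cyp2c40 with -0.32 ± 0.34, Cyp2c37 with -0.14 ± 0.21 and Cyp2a4 with -0.14 ± 0.33, none of which passed. Under median-of-ratios scaling these 6 ran from -0.84 for Cyp2b13 to -0.29 for Cyp2a4. Cyp2j9 stood at -0.13 and Cyp4f13 at -0.12 when aged/doxo library 2 was left out.

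Treated liver against young control liver completes the design. Here too 0 of 45 members passed (smallest limma adjusted p = 0.734), where 0.0276% of all genes, 3 genes, passed. At an unadjusted p under 0.05, 4 of 45 members stood out (8.89%, against 3.40% of all genes). One of the 4 is Cyp2b9, which was tested only because it is high in treated liver, and the count is 3 without it. The others were Cyp3a59 with a log2 fold change of 0.67 ± 0.28 (SE, 95% interval 0.06 to 1.28), Cyp2c38 with 0.61 ± 0.26 (0.04 to 1.18) and Cyp2c54 with 0.38 ± 0.17 (0.01 to 0.75), each at a limma adjusted p of 0.734. Median-of-ratios scaling gave smaller values, 0.40 for Cyp3a59, 0.37 for Cyp2c38 and 0.091 for Cyp2c54, and without young control library 1 they were 0.41, 0.43 and 0.39 in this order. Without overlap and higher were Cyp2a5, Cyp2c50, Cyp2c54 and Cyp3a25 (4 of 45 or 8.89%, against 3.66% of all genes), and 0 of 45 were wholly lower (0.358% of all genes). Cyp2c50 and Cyp2c54 are 95.2% identical over the coding sequence, so these 4 are not unrelated genes. The count by p and the count without overlap are not independent either. Cyp2c54 is in both, and Cyp3a59 in the former is 97.5% identical to Cyp3a25 in the latter. Both comparisons of the treated and of the aged/doxo group with young control share the same 4 young control libraries, so the values of Cyp2c54, 0.35 and 0.38, are not independent.

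The members' median in this comparison was 0.25, against 0.23 over all tested genes, with 39 of 45 positive (86.7%, against 84.0%), and median-of-ratios scaling gave -0.03 for the members, with 20 of 45 positive, and -0.01 for all genes. Without young control library 1 the medians were 0.11 for the members and 0.09 for all genes. Cyp3a25 with 0.53 ± 0.26 (SE) and Cyp2c50 with 0.48 ± 0.25 came next upward, at 0.24 and 0.19 under median-of-ratios scaling and at 0.32 and 0.33 without young control library 1. Of the members with a negative value, Cyp2c40 had -0.61 ± 0.34, Cyp2c69 -0.39 ± 0.28, Cyp2b13 -0.26 ± 0.45, Cyp4v3 -0.12 ± 0.32, Cyp2u1 -0.05 ± 0.19 and Cyp2d40 -0.01 ± 0.36. Under median-of-ratios scaling these 6 ran from -0.88 for Cyp2c40 to -0.30 for Cyp2d40. The widest intervals belong to the genes that vary from library to library: Cyp4a14 had 1.21 with a 95% interval of -0.77 to 3.19, Cyp4a10 1.20 (-0.29 to 2.69) and Cyp2c29 0.88 (-0.77 to 2.53). The narrowest belong to even genes such as Cyp2c54 (0.01 to 0.75).

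**Figure D4:**
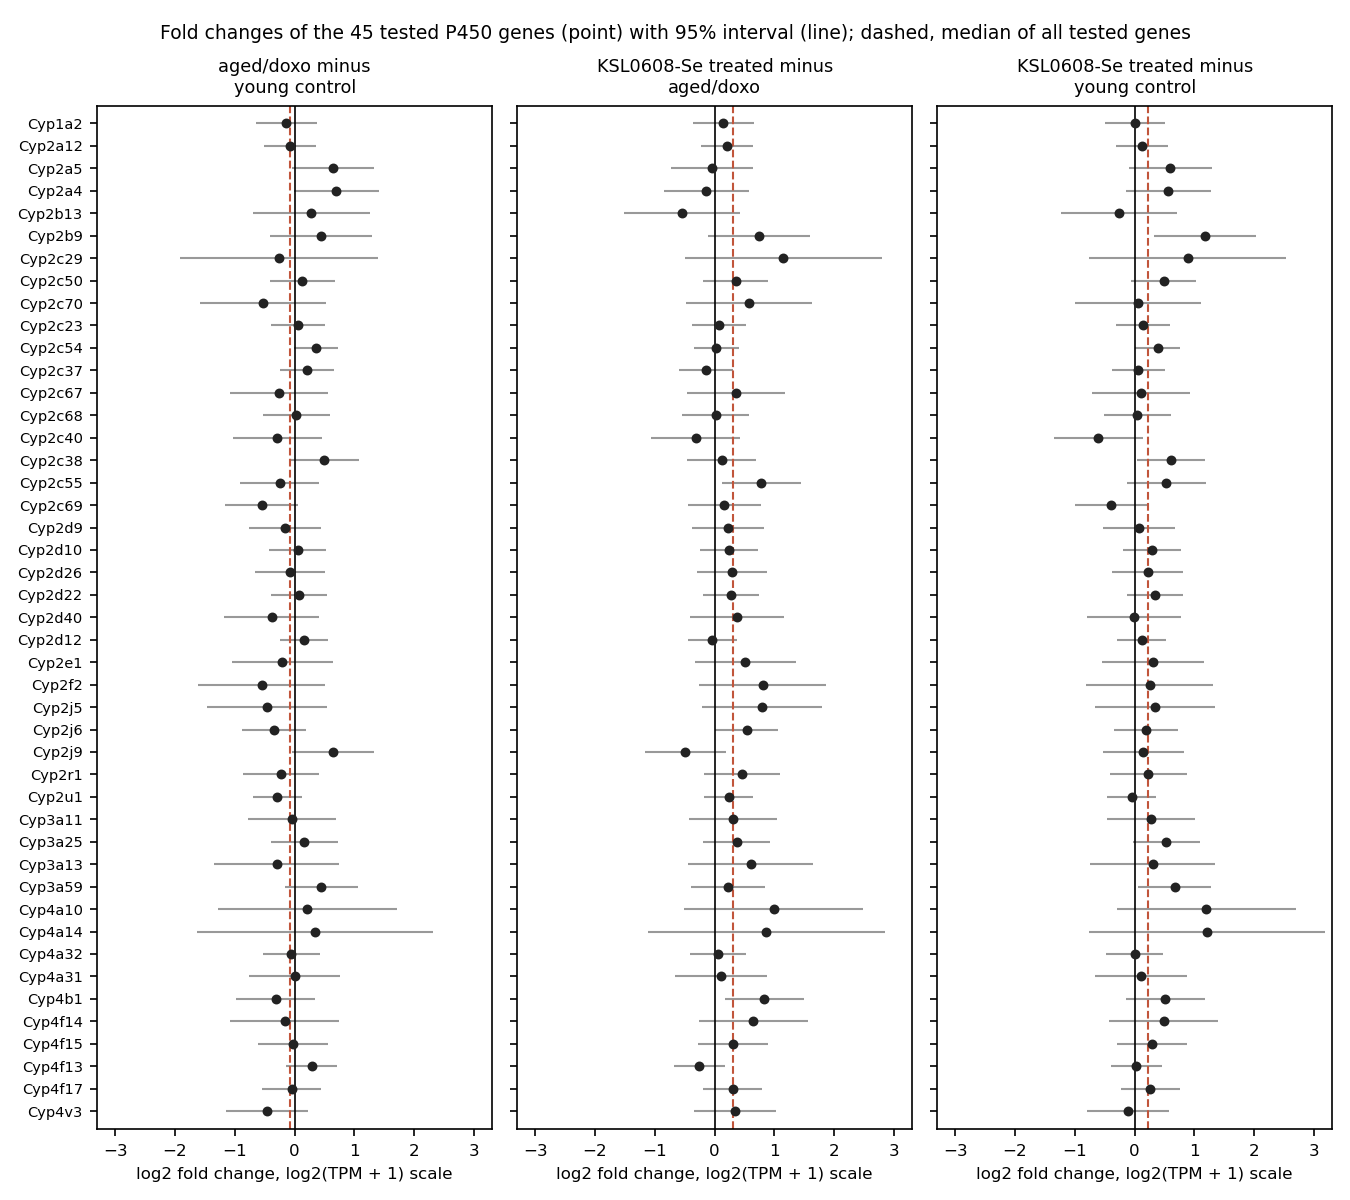
Log2 fold change of each tested P450 gene on the log2(TPM + 1) scale (point) with its 95% interval from limma (line) in the 3 comparisons, with 0 as a solid line and the median of all tested genes as a dashed line. Most points in both comparisons of the treated group lie to the right of 0, around the dashed line at 0.30 and 0.23, and the intervals of Cyp2c29, Cyp4a10 and Cyp4a14 are the widest.

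Grouped by what is known to control them, the P450 genes gave 0 calls in any list and comparison. The 11 tested members that CAR or PXR induce include Cyp2b9. Their median log2 fold change was 0.16 for aged/doxo against young control, 0.35 for treated against aged/doxo and 0.48 for treated against young control. The 8 tested pericentral members, among them Cyp1a2, Cyp2e1 and Cyp2c29, had medians of 0.05, 0.23 and 0.34 in the same order. For 9 members that inflammation lowers, such as Cyp3a11 and Cyp4f14, the medians were -0.14, 0.51 and 0.31. The 7 tested female-biased members, which include Cyp2b9 and Cyp2a4, had medians of 0.28, 0.16 and 0.56, and the 4 male-biased ones -0.34, 0.35 and 0.08. Cyp2b9 and Cyp2a4 reached the limit for testing only through groups in which they are higher. The medians of the CAR or PXR list and of the female-biased list are therefore a description only. Cyp4a12a and Cyp4a12b stand in the male-biased list besides Cyp2d9 and Cyp2u1. Over all tested genes the medians were -0.08, 0.30 and 0.23, and these lists share genes and copies with each other.

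The partners of the P450 enzymes gave 0 calls among 15 tested genes in each comparison. Por averaged 54.2 ± 16.0, 43.9 ± 19.7 and 42.3 ± 12.2 TPM in treated, aged/doxo and young control liver, and cytochrome b5, Cyb5a, 1469.7 ± 126, 1495 ± 190.4 and 1321 ± 90.5 TPM (SD, n = 4 each). Alas1, the first and rate-limiting enzyme of haem synthesis in liver, measured 53.3, 44.5, 54.2 and 96.4 TPM in treated libraries, 96.7, 19.7, 65.9 and 26.7 TPM in aged/doxo and 135, 174, 193 and 57.4 TPM in young control libraries. Young control library 4 lies within the range of the other groups, and the other 3 young control libraries lie above both. Its log2 fold change was -1.54 ± 0.50 (SE, limma adjusted p = 1) for aged/doxo and -1.08 ± 0.50 (limma adjusted p = 0.734) for treated liver, each against young control.

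Of 20 tested regulators of P450 genes, 0 passed in any comparison. At an unadjusted p under 0.05, 4 of 20 stood out in treated against aged/doxo liver (4.77% of all genes did). In treated against young control liver it was 3 of 20 (3.40% of all genes), and in aged/doxo against young control liver 0 (1.98%). All of these were higher in treated liver, the direction of 81.0% and 84.0% of all tested genes in the 2 comparisons of the treated group. Nr1i3, which encodes CAR, averaged 42.0 ± 5.61, 49.0 ± 4.37 and 36.5 ± 10.0 TPM and Nr1i2, which encodes PXR, 19.2 ± 2.45, 15.6 ± 3.31 and 16.9 ± 4.98 TPM in treated, aged/doxo and young control liver (SD, n = 4 each). Ppara measured 24.1, 28.2, 31.9 and 24.3 TPM in treated libraries, 25.2, 10.2, 16.6 and 15.1 TPM in aged/doxo, and 13.8, 25.1, 19.8 and 20.4 TPM in young control libraries. Treated and aged/doxo libraries overlap for Ppara through aged/doxo library 1 (log2 fold change 0.72 ± 0.26, SE, limma adjusted p = 0.427). Nfe2l2, which encodes the oxidative stress factor NRF2, had 0.97 ± 0.29 for treated against young control (SE, limma adjusted p = 0.734).

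Targets of the same receptors outside the P450 genes also gave 0 calls: 6 tested AHR targets, 21 CAR and PXR targets and 24 PPARA targets. At an unadjusted p under 0.05, 3 of 6 AHR targets, all higher, and 6 of 21 CAR and PXR targets, 4 higher and 2 lower, stood out in aged/doxo against young control (1.98% of all genes). For treated against young control these were 2 AHR targets, both higher, and 6 CAR and PXR targets, 5 of them higher (3.40% of all genes), and for treated against aged/doxo 0 of either list (4.77% of all genes). AHR targets had median log2 fold changes of 0.44 for aged/doxo against young control, 0.23 for treated against aged/doxo and 0.68 for treated against young control, and CAR and PXR targets -0.03, 0.35 and 0.52. The glutathione transferase Gsta1, which stands in the first and second of these lists, measured 14.9, 13.5, 9.09 and 6.84 TPM in treated libraries, 11.8, 11.7, 12.2 and 8.62 TPM in aged/doxo, and 3.79, 1.22, 4.30 and 5.04 TPM in young control libraries. All 8 treated and aged/doxo libraries exceeded the young control ones for Gsta1. Its log2 fold change was 1.48 ± 0.31 (SE, limma adjusted p = 0.932) for aged/doxo and 1.44 ± 0.31 (limma adjusted p = 0.584) for treated liver, each against young control. Gstm3 separated the same groups, at 85.9 ± 15.6, 83.0 ± 24.9 and 41.0 ± 9.32 TPM in treated, aged/doxo and young control liver (SD, n = 4 each), and did not pass either. Alas1 also stands in the CAR and PXR list and went the other way. Its log2 fold change was -1.54 for aged/doxo and -1.08 for treated liver, each against young control, and it did not pass. PPARA targets had medians of -0.29, 0.55 and 0.42 in the 3 comparisons, in the order aged/doxo against young control, treated against aged/doxo and treated against young control, and 0, 1 and 1 of the 24 had an unadjusted p under 0.05.

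Male-biased liver genes outside the P450 genes had median log2 fold changes of -0.69, 0.26 and -0.32 over 20 tested genes in the same order, with 0 passing. At an unadjusted p under 0.05, 9 of 20 were lower in aged/doxo than in young control liver (against 1.98% of all genes) and 6 of 20 were lower in treated than in young control liver (against 3.40%). In treated against aged/doxo liver it was 1 gene, Gstp1, at -0.46 ± 0.21 (SE, limma adjusted p = 0.427). Mup1, a major urinary protein gene with near-identical copies whose reads can be split between them, averaged 3018 ± 798, 2958 ± 495 and 6365 ± 2515 TPM in treated, aged/doxo and young control liver (SD, n = 4 each). Its log2 fold change was -1.04 ± 0.27 for aged/doxo (SE, limma adjusted p = 1) and -1.04 ± 0.27 for treated liver (limma adjusted p = 0.734), each against young control. The smallest p belonged to Mup1, Mup7 and Mup12 in aged/doxo against young control liver. In treated against young control liver it belonged to Mup1, Mup12 and Gstp1. The counts of 9 and 6 therefore include several Mup genes and are not counts of unrelated genes. Of 18 listed female-biased genes outside the P450 genes 3 were tested, with 1, Fmo2, at an unadjusted p under 0.05, higher in aged/doxo than in young control liver.

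Markers of other cells moved with the libraries too. The summed TPM of 12 endothelial markers was 78.8 to 146 in treated, 47.0 to 102 in aged/doxo and 41.3 to 107 in young control libraries, and 7 of the 12 had an unadjusted p under 0.05 in treated against aged/doxo liver (4.77% of all genes did), with 0 passing adjustment. All 7 were higher in treated liver, the direction of 81.0% of all tested genes in this comparison. Against young control liver 3 of 12 had an unadjusted p under 0.05 (3.40% of all genes did). These 3 were also higher in treated liver, the direction of 84.0% of all tested genes there. Erythroid markers summed to 846 to 1778 TPM in treated libraries, 1839 to 2568 TPM in aged/doxo, and 836 to 1991 TPM in young control libraries. Of 5 tested erythroid markers, 4 were higher in aged/doxo than in young control liver at an unadjusted p under 0.05 (1.98% of all genes reached it). At the same limit 4 were lower in treated than in aged/doxo liver (4.77% of all genes reached it). The globin genes Hba-a1, Hba-a2 and Hbb-bs had the smallest p in both comparisons, so these are not counts of unrelated genes. Smooth muscle markers summed to 7.23 to 12.4 TPM in treated libraries, 14.04 to 34.2 TPM in aged/doxo, and 7.11 to 25.6 TPM in young control libraries. Of the 4 tested smooth muscle genes, 3 were higher in aged/doxo than in young control liver at the same limit (median log2 fold change 0.76). In treated against aged/doxo liver 2 of the 4 were lower (median -0.75). The shares of all genes at this limit were again 1.98% and 4.77%. Of the other marker lists, hepatocyte, Kupffer and macrophage, and lymphocyte and neutrophil markers had at most 1 such gene in a comparison, stellate and fibroblast markers at most 2, and cholangiocyte and pancreas acinar markers 0. None of these markers passed adjustment. The part of these differences in the P450 values was not tested. Acute inflammation genes summed to 5122 to 5574 TPM in treated libraries, 3346 to 6981 TPM in aged/doxo, and 3984 to 6129 TPM in young control libraries, with 0 of 11 called in any comparison.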

How the data were processed

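Liver RNA of 12 mouse libraries, grouped by sample title into 3 groups of 4, was measured by RNA-seq. The authors deposited TPM per gene for 55903 genes, rounded to 2 decimals, and fastp, HISAT and RSEM are named in the submitters' processing notes without versions. For genome build and strand setting no statement was found in the labels. Depth is unknown, so no counting interval was computed. Because TPM totals are fixed, a gain in abundant transcripts lowers all others.

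Values were analysed as log2(TPM + 1) in the 10883 genes with a mean of at least 1 TPM, of which 45 are P450 genes of the rule. Such fold changes understate those of low genes. Group means were fitted to all 12 libraries with limma 3.58.1 (R 4.3.3, intensity trend). Two-sided p-values were Benjamini-Hochberg adjusted over all genes tested, with a threshold of 0.05. The script was tested on simulated data.

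The P450 genes and the gene lists were chosen with earlier results of these data known. Genes past the threshold are named with their test, and otherwise the 6 with the smallest p on each side. From each list up to 3 genes of smallest p are named, and Por, Cyb5a, Nr1i2, Nr1i3 and Ppara were added for their roles after their values were seen. Positions come from GENCODE M21 (GRCm38) by gene identifier, and promoters from RefSeq (GRCm38.p6), where 62 of 75 genes matched. Identity between members was computed on GENCODE coding sequences (Biopython 1.88) in place of the planned proteins. Python 3.11.15 and matplotlib 3.10.9 were used for tables and plots. Alternatives changed the pseudocount, filter, scaling, replicate block and libraries in the fit.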

Additional observations from a re-analysis of the deposited data

Results flagged for a closer look

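In each group of 4 libraries, the highest and lowest value of the 45 tested P450 genes was compared with the rest by Dixon's gap test on log2(TPM + 1). A library lay far from the other 3 of its group in 16 of 135 cases. Chance would give about 1 in 20, or 6.75, if the cases were independent. Of the 16, 6 fell in aged/doxo library 2 and 6 in young control library 1, the 2 libraries with the lowest P450 totals. The cases are not independent, since 1 library that stands apart can flag many genes. Over all tested genes these libraries were the lowest of the 12 for 54.2% and 21.3%. The gap test was not run on all genes, so the 16 cases are not read as particular to P450 genes.

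Aged/doxo library 2 was low for Cyp2e1 (892 TPM, against 3168 to 4066 TPM in the other 3), Cyp2c70 (91.0 TPM, against 395 to 529 TPM), Cyp2d26 (288.5 TPM, against 576 to 655 TPM) and Cyp2c23 (139 TPM, against 208 to 216 TPM). It was also low for Cyp4f14, at 30.6 TPM against 119.8 to 129.4 TPM, and for the vitamin D hydroxylase gene Cyp2r1, at 3.22 TPM against 9.0 to 10.1 TPM. Young control library 1 was low for Cyp2c29 (116 TPM, against 753 to 905 TPM), Cyp2c50 (316 TPM, against 468 to 498 TPM), Cyp2a12 (305 TPM, against 348 to 356 TPM), Cyp2d22 (61.8 TPM, against 89.9 to 95.8 TPM), Cyp4f15 (28.5 TPM, against 54.1 to 58.2 TPM) and Cyp2j6 (12.6 TPM, against 16.4 to 17.3 TPM). Mitochondrial genes held 27.6% of TPM in aged/doxo library 2 and 12.4% in young control library 1; their part in these values was not tested.

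The other 4 cases were high. Cyp2c55 stood at 10.2 TPM and Cyp2j6 at 22.5 TPM in treated library 4, against 5.64 to 6.24 TPM and 16.8 to 16.9 TPM in the other treated libraries. Both genes have an unadjusted p under 0.05 in treated against aged/doxo liver. Cyp4a31 stood at 2.78 TPM in treated library 2, against 1.63 to 1.78 TPM, and Cyp4a14 at 49.9 TPM in young control library 4, against 2.44 to 4.36 TPM. Treated library 2 and young control library 4 are those in which Cyp4a10 was also highest of its group.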

How the results depend on the processing

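The number of P450 genes passing stayed at 0 in all 3 comparisons under each of the 21 alternatives, with a smallest limma adjusted p of 0.59 for aged/doxo against young control, 0.22 for treated against aged/doxo and 0.51 for treated against young control. The count over all genes was small and moved. For aged/doxo against young control it was 1, and 2 with a pseudocount of 0.1, 0 with no filter, 3 with median-of-ratios scaling, 2 with quantile normalization, 0 with the replicate block, 0 with the compared groups alone, and 0 to 2 without one library. For treated against aged/doxo it was 1, and 0 with no filter, median-of-ratios scaling, quantile normalization, the replicate block, or both young control library 1 and aged/doxo library 2 left out, 2 with the compared groups alone, and 0 to 1 without one library. For treated against young control it was 3, and 1 with no filter, the replicate block or the compared groups alone, 5 with TPM rescaled to nuclear genes, and 1 to 5 without one library.

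Of 36 named fold changes, 4 changed sign, each of them in fits with one library left out and under no other alternative. Over the fits that leave out one library, Cyp2c70 in aged/doxo against young control ranged from -0.78 to 0.065, Cyp2a4 in treated against aged/doxo from -0.35 to 0.041, and in treated against young control Cyp4v3 from -0.32 to 0.037 and Cyp2d40 from -0.31 to 0.13. Under median-of-ratios scaling that value of Cyp4v3 was -0.41. The cause was not tested. The labels name no pairing by replicate number, and the main fit used none. Same-numbered libraries deviated with r from -0.58 to 0.39 over 12 pairs, 2 of them over 0.1. Of 12 libraries, 2 correlated best with their own number. Both ends of this range are pairs with young control library 1, which stands apart. With 4 libraries a group, these values cannot decide whether the numbers pair the libraries. Median-of-ratios scaling moved the median of all genes to 0.03 for treated against aged/doxo, which was 0.30, and to -0.01 for treated against young control, which was 0.23. TPM carries no depth, so the error of values under 1 TPM is unknown.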
